A study of Prunus yedoensis with 90 samples.

Results

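The 200 genes described here reached their highest transcript level in July or August in apical buds of the Yoshino cherry 'Somei-yoshino' (Cerasus × yedoensis). Among such genes they had the widest range between the highest and the lowest month. They were chosen by their own bud values. Of 95076 gene IDs, 40161 had a mean of at least 1 TPM over 66 bud libraries. TPM is a transcript abundance scaled for gene length and for the library total. For each of these genes, log2(TPM + 1) was averaged over the buds of 6 trees in each calendar month from June to March. Between its highest and its lowest month, the level of 2477 genes differed by at least 3, and 698 of those were highest in July or August. The 200 with the widest range are the members. The last of them, CYE_r3.1SPE0_g012600.1, had a range of 4.41, and the first gene left out, CYE_r3.1SPA5_g021130.1, also had 4.41.

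The trees grow outdoors at 3 sites in Japan, with 2 trees each in Fukuoka (the southernmost site), Tsukuba and Hokkaido (Sapporo, the northernmost). The cultivar is propagated by grafting, so all 6 trees carry copies of one genotype, and the labels name no treatment of them. Buds were collected on 11 dates per site from June 2018, ending on 13 March 2019 in Fukuoka, 4 April in Tsukuba and 8 April in Hokkaido. Leaves were collected on the first 4 of those dates, from June to 29 August in Fukuoka, 5 September in Tsukuba and 7 September in Hokkaido. All samples came from sun-exposed branches near midday. Leaf RNA and bud RNA were extracted by unlike methods, per the labels, so a difference between leaf and bud cannot be told apart from one of extraction. The sequencing step in the labels is worded for leaf RNA alone, and each library was taken as bud or leaf by its tissue label.

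In cherries, flower buds are laid down in summer on the growth of the current year, and the floral organs form inside the closed bud before winter. Growth then stops, the bud becomes dormant, a long cold period releases dormancy, and warmth in spring leads to bud burst. The labels do not say whether a collected bud was floral. The gene IDs come without names in the files, so no role is given to any of them, and the tissues could not be checked against marker genes because 0 marker symbols matched an ID.

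The bud libraries each held between 35471 and 40376 genes above 1 TPM and the leaf libraries between 33242 and 35300. Every library sums to 1000000 TPM, so sequencing depth is unknown. Over the 200 members, the log2(TPM + 1) values of the 2 trees of one site and date correlated across genes with a median r of 0.948 in buds (0.784 to 0.982) and 0.954 in leaves (0.879 to 0.987). Library numbers of 8000 and above mark the second tree of Tsukuba and of Hokkaido at every date. Tree and library series therefore cannot be told apart there. In every other tree, the bud library numbers jump to a later run in November or December. Season and library run thus partly overlap in those trees, and the effect of the run was not tested. The second trees of Tsukuba and Hokkaido have no such jump. Their median member was at 6.50 and 5.53 in August and at 1.18 and 0.82 in January. Those libraries entered the rule, so these levels are a description only and do not test the effect of the run. The leaf libraries collected in Hokkaido on 4 June stood apart. From that date to the last leaf collection, 25.2% of all genes tested changed in Hokkaido, against 2.62% in Fukuoka and 6.06% in Tsukuba, and averages over sites that start from that collection take in those libraries.

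Together the members made up between 0.0936% and 7.86% of the TPM of a bud library, most in late summer and least in midwinter. Their mean TPM values summed to 29088 in July, 49504 in August and 1665 in January. The median member reached 95.2 TPM in its highest month (21.2 to 3766 over the members) and 0.978 TPM in its lowest. In January, 83 members averaged under 1 TPM. In bulk tissue, fewer cells of a type and less RNA per cell cannot be told apart. The level of the median member, as log2(TPM + 1), was 5.16 in June, 5.71 in July, 6.03 in August, 5.07 in September and 4.79 in October. It was then 3.31 in November, 2.33 in December, 1.28 in January, 1.40 in February and 2.22 in March. Over all genes tested the same median stayed between 3.07 and 3.33. Highest months were nearly even, with 99 members highest in July and 101 in August. The lowest month was January for 85 members, March for 59, February for 35, December for 17, November for 2 and June for 2. These monthly values chose the members and are a description only.

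**Figure D1:**
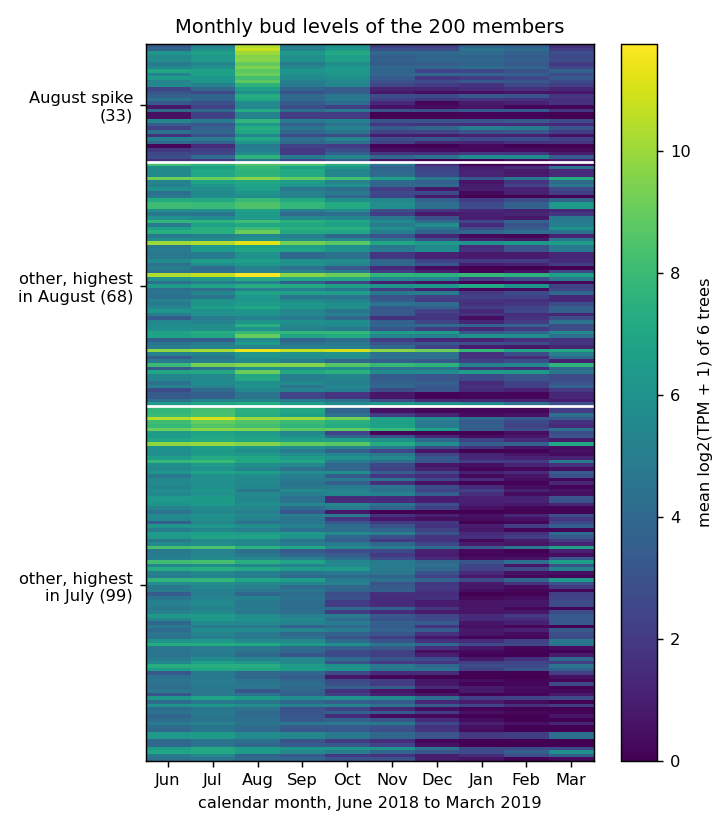
Monthly bud level of each of the 200 members (rows) from June to March (columns), as the mean log2(TPM + 1) of 6 trees shown by colour. The 33 members in the top block are bright in August and dim in the months on either side, whereas the 167 members in the lower blocks have a median of 5.31 in June, 5.87 in August, 5.26 in September and 1.06 in January.

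The members followed 2 shapes. In 33 members, the August mean over the 6 trees stood at least 2 above the higher of July and September, by 2.02 to 5.12. These are called the August-spike members below. This limit was set after the values were seen, and a limit of 1.5 would take 43 members and one of 2.5 would take 25. It was applied to means over sites with unlike dates, so the spike need not be as narrow within a site. The other 167 are called plateau members, although in 14 of them no second month came within 1 of the highest. Of the 167, 115 were within 1 of their highest month in June, 94 in September and 44 in October. Their median level was 5.31 in June, 5.81 in July, 5.87 in August, 5.26 in September, 4.78 in October, 3.42 in November, 2.34 in December and 1.06 in January. By March it was 2.55, and 86 of the 167 stood at least 1 higher in March than in January. The August-spike members differed there, with 2 of 33 higher and 12 lower by at least 1, and March was the lowest month for 22 of them. Their median member was at 3.87 in July, 7.22 in August, 4.27 in September, 4.91 in October and 2.51 in November.

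Over the 60 bud libraries that the rule used, the median pairwise r among the 200 members was 0.713, with quartiles of 0.551 and 0.819. This is a description only, since the members were chosen for a common season in these libraries, which also share sites, trees and dates.

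Resolved by date, the August spike was high in Fukuoka and Tsukuba, low in Hokkaido, and not kept to August. The level was already high in early July in Fukuoka and still high in early September in Tsukuba. In Fukuoka, the median August-spike member stood at 5.02 on 7 June, 6.94 on 4 July and 8.43 on 1 August. On 29 August, a collection the rule did not use, the 2 trees were at 9.16 and 9.65. By 26 September they were at 3.28 and 3.81, and on 24 October at 3.43 and 3.87.

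In Tsukuba there were 2 high dates with a dip between them. The median August-spike member stood at 3.67 on 5 July and 8.58 on 7 August, then 7.41 on 5 September, 9.39 on 7 October and 3.75 on 16 November. Between 5 September and 7 October, 28 of the 33 were higher by at least 1. Both dates entered the rule, and a low September entered the limit for the August spike, so this count is a description. Both Tsukuba trees were high on 7 October, at 9.22 and 9.46. In 23 of the 33, October was the highest month at this site. Neither of the other sites had such an October value, on 24 October in Fukuoka and 11 October in Hokkaido. The dates are unlike, and a rise in Fukuoka between 26 September and 24 October would not have been seen. The August-spike members at least 1 higher in October than in September numbered 0 in Fukuoka and 1 in Hokkaido.

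In Hokkaido the same genes had a lower August level than at the other sites. The median August-spike member was at 4.71 on 13 August, with the 2 trees at 5.27 and 3.89, and at 3.67 on 4 June. On 9 July the trees were at 1.32 and 1.54. A range of at least 3 within the site was reached by 24 of the 33 in Hokkaido and by all 33 at each of the other sites. The highest month in Hokkaido lay from June to August for 32 of the 33, and in July or August for 22. These libraries entered the rule, so the counts are a description.

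**Figure D2:**
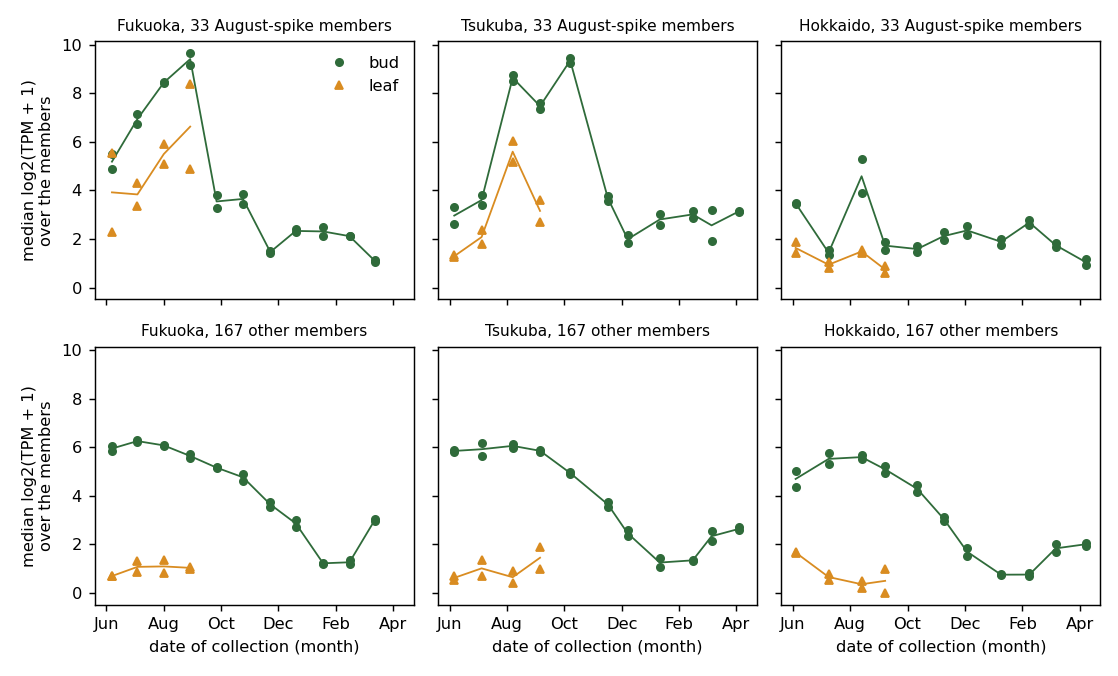
Median log2(TPM + 1) over the 33 August-spike members (top) and the 167 other members (bottom) in each library, by collection date and site. Points are single trees (n = 2 per date), circles are buds, triangles are leaves, and lines join the means of the 2 trees. The median August-spike member reaches 9.39 in Tsukuba on 7 October and 4.71 in Hokkaido on 13 August. The median of the other members follows a similar summer plateau at each site, which need not hold for single genes.

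The widest range of any member belonged to CYE_r3.1SPA2_g034430.1, followed by CYE_r3.1SPE2_g027840.1, both August-spike members. In Fukuoka, CYE_r3.1SPE2_g027840.1 had bud TPM values in the 2 trees of 53.3 and 32.8 on 7 June, 881 and 558 on 4 July, 5670 and 6659 on 1 August, 4765 and 5708 on 29 August, and 23.9 and 37.1 on 26 September. In Tsukuba it had 80.8 and 110 on 5 July, 4696 and 5052 on 7 August, 848 and 606 on 5 September, 5745 and 4730 on 7 October, and 29.7 and 12.2 on 16 November. In Hokkaido it had 0.276 and 4.58 on 9 July, 450 and 68.5 on 13 August, and 1.44 and 0.746 on 7 September. Every August value in Fukuoka and Tsukuba was above every Hokkaido value. Its August mean over the 6 trees was 3766 ± 2799.5 TPM (SD, n = 6), with an SD that takes in this gap between sites. The gene CYE_r3.1SPA2_g034430.1 had nearly the same course (r = 0.995 over the 60 libraries), with 4575 and 5517 TPM in Fukuoka on 1 August and 374 and 44.4 TPM in Hokkaido on 13 August.

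A plateau member is illustrated by CYE_r3.1SPA3_g011650.1, which had the widest range among members highest in July. Its bud TPM in the 2 trees was 166 and 147 in Fukuoka on 4 July, 934 and 488 in Tsukuba on 5 July, and 274 and 290 in Hokkaido on 9 July. It was still at 103 and 118 in Fukuoka on 26 September and fell to 18.1 and 22.2 there on 24 October. In January and February it was under 1 TPM in every tree. The July values of the 3 sites did not overlap, with Tsukuba highest and Fukuoka lowest. On the August dates that the rule used, from 126 to 340 TPM, only the Tsukuba and Hokkaido values overlapped. On 29 August, which the rule left out, the Fukuoka trees had 91.0 and 184 TPM, and the higher value lay within the Tsukuba values of 7 August. CYE_r3.1SPA0_g138570.1, second by range among the July members, was nearly identical (r = 1.00, median difference 0.015 on the log2 scale), so reads may be shared between these 2 IDs.

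**Figure D3:**
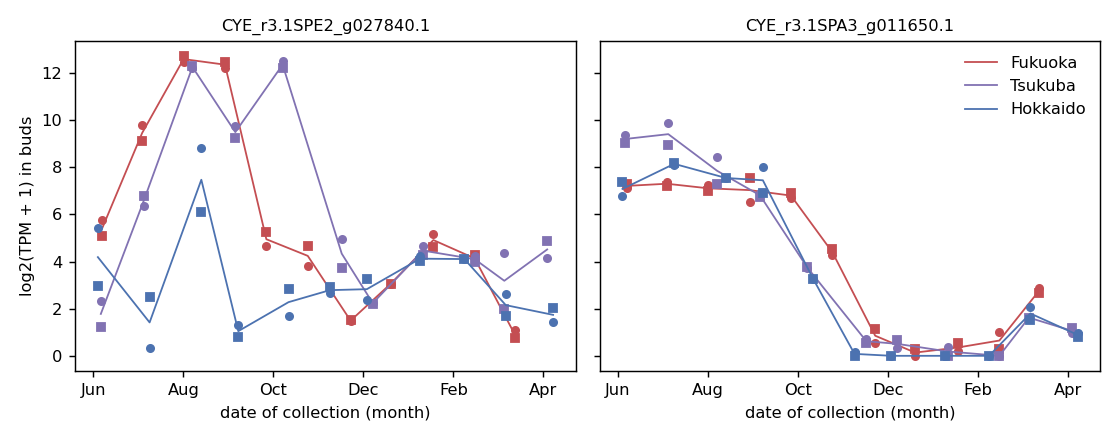
Bud level, in log2(TPM + 1) units, of the August-spike member CYE_r3.1SPE2_g027840.1 (left) and the plateau member CYE_r3.1SPA3_g011650.1 (right) by collection date. Circles and squares are the 2 trees of a site and lines join their means. The left gene reaches 4696 to 6659 TPM in August in Fukuoka and Tsukuba and at most 450 TPM in Hokkaido, while the right gene is high at all 3 sites in July.

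Where each site was taken alone, the July or August maximum was less uniform than the mean over sites. It held at all 3 sites for 40 members, at 2 sites for 78, at 1 site for 76 and at 0 sites for 6. Counting June as well, 187 members were highest from June to August in Fukuoka, 129 in Tsukuba and 178 in Hokkaido. In Tsukuba, 71 members were highest in September or October, against 8 in Fukuoka and 20 in Hokkaido.

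Levels in the July and August buds were compared between sites with limma on log2(TPM + 1), using 1 mean per tree (n = 2 trees per site). The dates were 4 July and 1 August in Fukuoka, 5 July and 7 August in Tsukuba, and 9 July and 13 August in Hokkaido. Site and date therefore cannot be told apart in these tests. A gene was called at a Benjamini-Hochberg adjusted p under 0.05 over all 40161 genes and a difference of at least 1. The rule used these same libraries, averaged over sites, and a gene that is high at 1 site can enter the list through that site. The counts of members are therefore a description, from which nothing is read about the list. Of the members, 103 were called in the test over the 3 sites, where 8.14% of all genes were called. They included all 33 August-spike members and 70 of the other 167. The count was 45 and 52 without the first and the second Fukuoka tree, and 44 and 41 without those of Hokkaido. With no filter on low values it was 27. By the naming rule, the genes given here are CYE_r3.1SPE2_g027840.1, whose site means spanned 6.58, and CYE_r3.1SPE3_g011590.1, whose site means spanned 4.38.

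In these libraries the August-spike members were lower in Hokkaido, and the other members were mixed. This too is a description, since a gene can pass the spike limit through Fukuoka and Tsukuba alone. The lists for June and for September or October were likewise chosen by bud values. Against Fukuoka, 76 members were lower and 5 higher in Hokkaido, where 6.85% of all genes were called (3.57% higher and 3.28% lower). The 76 comprised all 33 August-spike members, with a median difference of -4.64, and 43 others. Over the 167 other members the median difference was 0.06. Of the 200 genes chosen by the same rule for September or October, 100 were lower in Hokkaido than in Fukuoka and 2 higher, and of those for June 0 were lower and 80 higher. Against Tsukuba, 77 members were lower and 13 higher, where 4.65% of all genes were called (2.58% higher and 2.07% lower), and again all 33 August-spike members were lower (median -3.02, against -0.31 for the other 167). With no filter on low values, 41 members were called against Fukuoka and 12 against Tsukuba. CYE_r3.1SPA2_g034430.1 differed by -6.86 ± 0.47 (SE) from Fukuoka and by -4.99 ± 0.47 from Tsukuba. The gene CYE_r3.1SPE2_g027840.1 differed by -6.58 ± 0.16 from Fukuoka and by -4.97 ± 0.16 from Tsukuba. Over all genes the median difference was 0.20 for Hokkaido minus Fukuoka. It was 0.03 after scaling each library to its median, which gave 82 members lower and 2 higher, and turned the split of all genes from 1432 higher and 1319 lower to 778 and 1693. For Hokkaido minus Tsukuba the same scaling gave 76 members lower and 6 higher, and moved the split of all genes from 1036 higher and 833 lower to 660 and 951. With 1 tree left out, the members called against Fukuoka numbered 39 and 51 without the Fukuoka trees and 46 without either Hokkaido tree, and those against Tsukuba 43 and 30 without the Hokkaido trees.

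Some members went the other way. CYE_r3.1SPE0_g004710.1 had 295 and 412 TPM in Hokkaido on 13 August, 21.1 and 41.7 in Fukuoka on 1 August, and 42.3 and 87.4 in Tsukuba on 7 August. It was higher in Hokkaido by 2.40 ± 0.44 than in Fukuoka and by 2.02 ± 0.44 than in Tsukuba. CYE_r3.1SPE0_g037700.1 was higher than in Fukuoka by 2.05 ± 0.37, and CYE_r3.1SPE0_g004690.1 was higher than in Tsukuba by 2.52 ± 0.47. Between Tsukuba and Fukuoka, limma called 0 members and 0.0% of all genes. At an unadjusted p under 0.05 there were 116 members and 8668 of all 40161 genes, and the 116 included all 33 August-spike members, each lower in Tsukuba (median -1.58). Without the second Tsukuba tree 74 members and 3.16% of all genes were called, and with limma's trend and robust options 43 members and 0.767%. With only the library series numbered under 8000, which leaves out the second tree in Tsukuba and in Hokkaido, 89 members were called between Hokkaido and Fukuoka and 0 between Hokkaido and Tsukuba, where 1 tree then stands against 1.

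The rule used no leaf library. A mean under 1 TPM over the 24 leaf libraries was found for 63 members (31.5%) and for 16.7% of all genes. All 63 were plateau members and none was an August-spike member. The median leaf TPM was 27.9 for the August-spike members, 3.34 for the other members and 5.57 for all genes tested. Among genes chosen by the same rule for a June maximum, 14% were under 1 TPM in leaf, and among those for September or October 30.5% were.

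The members with the highest leaf level were CYE_r3.1SPE0_g037810.1 and CYE_r3.1SPE0_g004750.1, whose values were nearly identical (r = 1.00, median difference 0.011), so reads may be shared between them. The first had leaf TPM values in Tsukuba of 1373 and 1970 on 6 June and 1819 and 2698 on 5 September, where its buds had 11.6 and 4.00 in June and 468 and 205 in September. In Hokkaido leaves it had 46.6 and 204 on 4 June and 1818 and 1608 on 13 August. This gene was thus high in leaves at every site by August, and its Hokkaido leaves of June were lowest of the 24 leaf libraries.

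From July to August, 10 of the 33 August-spike members rose in leaves and 0 fell. This step, from collection 2 to 3, was added after the bud spike had been seen. Averaged over the sites (6 trees), limma called 18 members higher and 11 lower, where 1.66% of all genes were called (0.227% higher and 1.43% lower). The median August-spike member changed by 1.72. An unadjusted p under 0.05 with a rise was found for 26 of the 33, where 8588 of all 40161 genes had such a p in either direction. Their median change by site was 1.80 (Fukuoka), 3.11 (Tsukuba) and 0.51 (Hokkaido). Taken alone, each site allowed few calls, with 1 member in Fukuoka (1.45% of all genes), 4 in Tsukuba (0.563%) and 4 in Hokkaido (0.829%). A test of whether this step differed between sites called 1 member, the plateau gene CYE_r3.1SPA2_g002040.1 (range of site changes 2.87, limma, adjusted p = 0.0318), against 0.401% of all genes, and 0 August-spike members, 5 of which had an unadjusted p under 0.05, as had 4290 of all genes. Without the first or second tree of Fukuoka or of Tsukuba this count was 0, and without the second Hokkaido tree it was 4.

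Of the genes that met the naming rule, CYE_r3.1SPE1_g016060.1 rose most in leaves between collections 2 and 3. Its leaf TPM went from 56.5 and 9.21 to 82.8 and 204 in Fukuoka, from 3.05 and 0.656 to 409 and 96.2 in Tsukuba, and from 0.977 and 0.991 to 5.41 and 1.31 in Hokkaido. All 6 trees were higher on the later date, by 3.22 ± 0.74 on average (limma, adjusted p = 0.0189). CYE_r3.1SPE2_g034740.1 rose by 2.73 ± 0.52 (limma, adjusted p = 0.00777). Those that fell most were the plateau genes CYE_r3.1SPA0_g042820.1, by -3.61 ± 0.80 (limma, adjusted p = 0.0160), and CYE_r3.1SPA0_g042770.1, by -3.15 ± 0.75 (limma, adjusted p = 0.0226). These last 2 IDs lie 5 gene numbers apart and had r = 0.991 in buds. The count of 29 for this step was 47 with the tree as a block and 11 with no filter on low values. It fell to 2 without the first Tsukuba tree, to 5 without the second, to 9 without the first Hokkaido tree and to 18 without the second Fukuoka tree.

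The 2 Fukuoka trees disagreed in their leaves. The leaf library numbers of the second tree belong to a later run than those of the first. The bud library numbers of both trees from June to October lie in a single run. Tree and library run therefore cannot be told apart in these leaves. The median August-spike member was at 2.30 and 5.54 on 7 June and at 4.89 and 8.36 on 29 August, with the second tree higher both times, whereas on 4 July it was at 4.31 and 3.35. In buds of the same dates these trees differed by less, with 5.48 and 4.89 on 7 June. CYE_r3.1SPE1_g016060.1 had 110 and 1169 TPM in the Fukuoka leaves of 29 August.

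Over the whole summer, from leaf collection 1 to 4, limma called 27 members higher and 28 lower, where 7.34% of all genes were called (2.91% higher and 4.43% lower). The higher ones comprised 9 August-spike members and 18 others, and all 28 lower ones were plateau members. From collection 1 to 2, 4 were higher (0.251% of all genes) and 13 lower (0.438%), with 0.69% called in all. From collection 3 to 4, 1 was higher (0.222%) and 2 lower (0.0697%), with 0.291% in all. With the tree as a block, the count from collection 3 to 4 was 9, and with no filter on low values it was 0. The count from collection 1 to 2 was 10 and 11 without the first and second Fukuoka tree and 7 without either Tsukuba tree, and that from 3 to 4 was 0 without the first Fukuoka or the first Tsukuba tree and 1 without the second of either. By the naming rule, the largest rise in the whole summer was in CYE_r3.1SPE7_g005460.1, by 4.61 ± 0.66 (limma, adjusted p = 0.000178), with 1.27 and 1.04 TPM in Tsukuba on 6 June and 298 and 50.5 on 5 September. CYE_r3.1SPA0_g100470.1 rose by 3.07 ± 0.40 (limma, adjusted p = 8.48e-05), as the average of 2.42 in Fukuoka, 1.68 in Tsukuba and 5.12 in Hokkaido, where the leaves of 4 June had 0 and 1.98 TPM. CYE_r3.1SPE1_g007840.1 changed by -3.45 ± 0.42 (limma, adjusted p = 5.79e-05) and CYE_r3.1SPA8_g018880.1 by -3.17 ± 0.42 (limma, adjusted p = 0.000112). By site, CYE_r3.1SPA8_g018880.1 changed by -5.46 in Hokkaido leaves, against -1.98 in those of Fukuoka and -2.09 in those of Tsukuba. By July it had already changed by -1.86 ± 0.42 (limma, adjusted p = 0.0346), with 88.4 and 130 TPM in Hokkaido leaves on 4 June and 15.0 and 5.18 TPM on 9 July. By the same date, CYE_r3.1SPE0_g037700.1 had risen by 1.29 ± 0.21 (limma, adjusted p = 0.00554) and the August-spike gene CYE_r3.1SPA6_g035900.1 by 1.14 ± 0.28 (limma, adjusted p = 0.0452).

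That summer average joined unlike sites. Within Fukuoka, 23 members rose and 1 fell from collection 1 to 4, where 1.04% of all genes rose and 1.58% fell. Within Tsukuba 30 rose and 4 fell, where 3.8% of all genes rose and 2.25% fell. Within Hokkaido 12 rose and 66 fell, where 11.4% of all genes rose and 13.8% fell. Of the 200 genes chosen by the same rule for a June maximum, 144 fell in Hokkaido leaves. The median August-spike member changed by 2.53, 1.90 and -0.47 at these sites. The change differed between sites in 64 members, 59 of them plateau members, where 22.8% of all genes were called. These 64 had a median change of 0.37 in Fukuoka leaves, 0.33 in Tsukuba leaves and -2.74 in Hokkaido leaves, where 54 of them had a negative change.

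**Figure D4:**
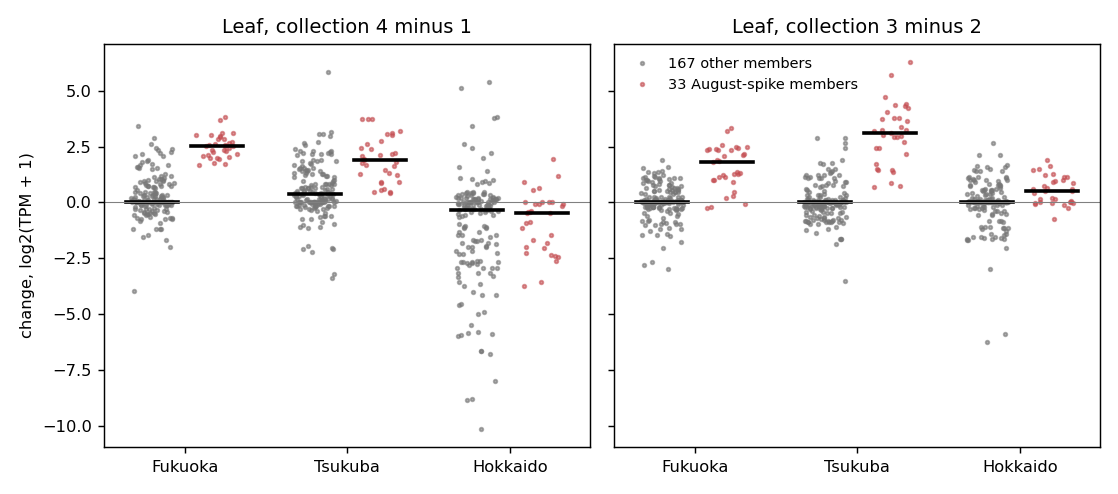
Change in leaf level, as log2(TPM + 1), of each member within each site, from collection 1 to 4 (left) and from collection 2 to 3 (right). Each point is 1 gene as the mean of 2 trees, grey for the 167 other members and red for the 33 August-spike members, and black bars are medians. From collection 1 to 4 the red medians are 2.53, 1.90 and -0.47 in Fukuoka, Tsukuba and Hokkaido, and many grey points lie far below 0 in Hokkaido.

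The Hokkaido leaf libraries of 4 June held high values of some plateau members, in a pattern picked out after the values were seen. In 53 of the 167 plateau members both libraries had at least 10 TPM, as in 11505 of all 40161 genes tested. In 11 of those 53, all 4 leaf libraries of June from the other sites were under 1 TPM. Both conditions together thus held for 11 of the 167 plateau members, for 0.271% of all genes tested and for 0 August-spike members. CYE_r3.1SPA3_g011650.1 had 405 and 507 TPM in Hokkaido leaves on 4 June, next to 110 and 163 in the buds of those trees. By 9 July it had 1.50 and 0.236 TPM in Hokkaido leaves, and in all leaf libraries of the other sites it was under 0.5 TPM. CYE_r3.1SPE0_g087960.1 likewise had 2176 and 851 TPM in Hokkaido leaves on 4 June and at most 2.005 TPM in every leaf library of the other sites. Over the other 22 leaf libraries, 77 members (38.5%) had a mean under 1 TPM, against 18.4% of all genes.

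Averaged over the 4 leaf collections (1 mean per tree, n = 2 trees per site), 21 members differed in the test over the 3 sites, where 1.11% of all genes were called. Hokkaido leaves were lower than Fukuoka leaves in 46 members and higher in 11, where 2.43% of all genes were called (0.956% higher and 1.47% lower). They were lower than Tsukuba leaves in 20 and higher in 11, where 2.33% were called (1.17% higher and 1.16% lower). Between Tsukuba and Fukuoka leaves, limma called 0 members and 0.0% of all genes, and 50 members and 3966 of all 40161 genes had an unadjusted p under 0.05. The August-spike members called lower in Hokkaido numbered 15 against Fukuoka and 2 against Tsukuba. By the naming rule, those with the largest difference from Fukuoka were CYE_r3.1SPE1_g016060.1, at -5.02 ± 0.68 (limma, adjusted p = 0.0374), and CYE_r3.1SPA2_g039660.1, at -4.76 ± 0.42 (limma, adjusted p = 0.0331). CYE_r3.1SPE0_g087960.1 was higher in Hokkaido by 2.77 ± 0.37 than in Fukuoka (limma, adjusted p = 0.0370) and by 2.89 ± 0.37 than in Tsukuba (limma, adjusted p = 0.0368), which rests on the libraries of 4 June. CYE_r3.1SPA3_g011650.1 was higher by 2.31 ± 0.11 and 2.38 ± 0.11 (limma, adjusted p = 0.0198 and 0.0265), resting on the same libraries. Lower than in Tsukuba were CYE_r3.1SPA0_g100470.1, by -2.97 ± 0.41 (limma, adjusted p = 0.0387), and CYE_r3.1SPE1_g034410.1, by -2.85 ± 0.46 (limma, adjusted p = 0.0452). Leaving out any 1 of the 6 trees brought the test over the 3 sites to 0 members. It brought both contrasts with Hokkaido to 0 as well, except that leaving out the second Hokkaido tree left 23 members against Fukuoka and 28 against Tsukuba. With no filter on low values, 0 members were called over the 3 sites, 3 against Fukuoka and 2 against Tsukuba.

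April buds, of Tsukuba and Hokkaido, were not used by the rule either. The median member was at 2.70 in Tsukuba on 4 April, after 1.36 in January and 2.48 in March. In Hokkaido it was at 1.61 on 8 April, after 0.88 in January and 1.89 in March. The January and summer levels entered the rule, so the April levels are set beside them as a description.

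Between the sites in April, limma, with its spread estimated over all 66 bud libraries, called 46 members higher in Tsukuba and 11 lower, where 2.16% of all genes were called (1.03% higher and 1.13% lower). The 46 comprised 23 of the 33 August-spike members and 23 plateau members, and all 11 lower ones were plateau members. In the median August-spike member the level was 3.13 in Tsukuba and 1.03 in Hokkaido, where 16 of the 33 were at least 1 below their January level. CYE_r3.1SPA2_g039660.1 had 29.8 and 24.4 TPM in Tsukuba against 1.02 and 1.87 TPM in Hokkaido, a difference of 3.54 ± 0.75 (limma, adjusted p = 0.00272). CYE_r3.1SPA0_g092060.1, which had r = 1.00 with it in buds, differed by 3.33 ± 0.74 (limma, adjusted p = 0.00437). In the other direction, CYE_r3.1SPE8_g013120.1 had 0.792 and 3.18 TPM in Tsukuba against 8.88 and 64.0 TPM in Hokkaido (-3.21 ± 0.73, limma, adjusted p = 0.00523). CYE_r3.1SPA8_g010850.1 had 1.54 and 1.16 TPM against 3.48 and 40.3 TPM (-2.54 ± 0.69, limma, adjusted p = 0.0198). In both of these the second Hokkaido tree was far above the first. Neither gene was called without that tree or without the first Tsukuba tree, and with any 1 tree left out the latter gene was called only without the first Hokkaido tree. The count of 57 was 29 without the second Hokkaido tree, 32 without the first Tsukuba tree and 37 without the second. The collections are 4 days apart by calendar, and the bud stages on them are not stated.

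**Figure D5:**
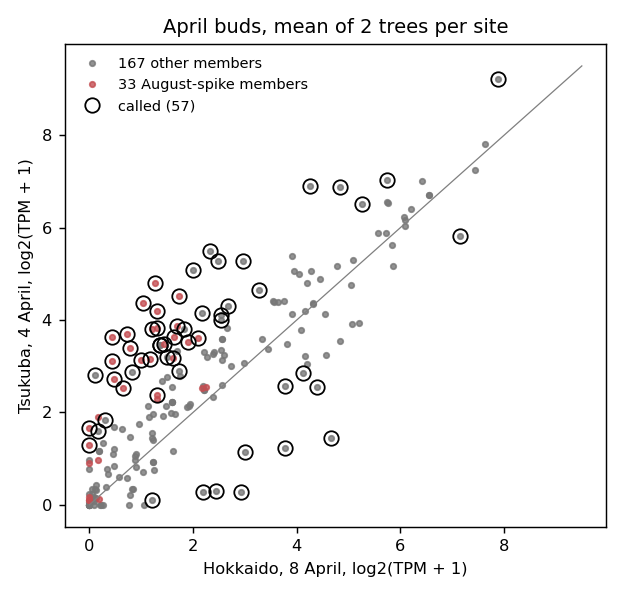
April bud level of each member in Tsukuba (vertical) and Hokkaido (horizontal), as the mean log2(TPM + 1) of 2 trees, with the line of equal levels. Rings mark the 57 members called between the sites. The red August-spike members lie mostly above the line, with medians of 3.13 and 1.03.

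The gene IDs carry the letters SPA or SPE and a digit from 0 to 8, which the sources used here do not explain. SPA stood in 94 member IDs (47%) and in 52.1% of the genes tested, and SPE in 106. Among the August-spike members 22 were SPA and 11 SPE. The digit 2 was in 31 member IDs (15.5%), against 8.71% of the genes tested, and in 9 of the 33 August-spike members. The members held 18 pairs within 5 gene numbers of each other, made of 34 genes, and 8 of those pairs were direct neighbours in number. Their correlations over the 60 bud libraries ran from 0.786 to 0.991. Across the whole list, 61 pairs had r of at least 0.99, which took in 83 members. Of these pairs, 21 joined an SPA with an SPE gene, and 15 had a median difference under 0.1 on the log2 scale. Near-identical copies may share reads, so the 200 IDs may stand for fewer independent measurements.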

How the data were processed

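RNA was sequenced from 66 bud and 24 leaf libraries of 6 trees. The authors deposited TPM values for 95076 gene IDs, which, per the submitters' processing notes, involved StringTie 1.3.5, STAR 1.5.2 and fastp 0.20.0. The genome build was not given in the sources used here, and no sequence or annotation was used. All 90 columns were mapped by their titles. No depth or counting error could be had from TPM.

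Values were analysed as log2(TPM + 1), which understates changes of low genes. The rule took 60 bud libraries, leaving out the 4 of April and the 2 of Fukuoka on 29 August. Tests used limma 3.58.1 in R 4.3.3 (eBayes with trend and robust off). They ran on the 40161 genes with a mean of at least 1 TPM over the buds, with Benjamini-Hochberg adjustment over all of them. The fits were also run on simulated data, drawn independently for each library with the SD of a gene capped at 1. Those data held no tree effect, so they cannot check the repeated use of the same trees. A call needed an adjusted p under 0.05 and a change, or range of means, of at least 1. Leaf changes were fitted over 12 site and collection groups, site differences over 1 mean per tree, and April over 33 bud groups. Since the 6 trees are one clone, p-values measure the spread between trees of that clone. For site differences this is the spread between the means of the 2 trees of a site. For leaf changes and April it is the spread between the 2 trees of a group, pooled over the 12 or 33 groups. The same trees then enter at several dates as if independent.

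Members and lists were chosen with earlier results of these data known. Named genes were, for each test, the 2 called members that rose most and the 2 that fell most among those with a mean of at least 5 TPM and the same sign in every tree or pair of trees. For tests over 3 sites they were the 2 with the smallest p, and the leaf step from collection 3 to 4 had none that qualified. Described without a test were the 2 widest-ranging members of July and of August, the members at the edge of the rule and the 2 highest in leaf. A replicate number marks the same tree at each date, so the numbers pair the samples by design. The difference between the 2 trees correlated across dates with a median r of 0.225, 0.195 and 0.187 in leaves and 0.0433, 0.0533 and 0.0892 in buds, for Fukuoka, Tsukuba and Hokkaido. Alternatives were another pseudocount, filters, 2 scalings, eBayes options, a tree block, library series and each tree left out. Other software was Python 3.11.15 with pandas 2.3.3 and matplotlib 3.10.9, and the R package data.table at version 1.17.8.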

Additional observations from a re-analysis of the deposited data

Results flagged for a closer look

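The leaf change from collection 1 to 4 differed between the sites in 64 members (limma's test of the difference), where 22.8% of all genes tested were called. In CYE_r3.1SPA3_g011650.1 leaves from Fukuoka changed by -0.11, those from Tsukuba by 0.0 and those from Hokkaido by -8.83. In CYE_r3.1SPA0_g138570.1, whose values are nearly identical, the same changes were -0.11, 0.0 and -8.80. Both Hokkaido values rest on the 2 leaf libraries of 4 June, and the cause was not tested.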

How the results depend on the processing

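With a pseudocount of 0.1, 126 of the 200 members were found again, and 150 to 176 with 1 tree left out. With the tree as a replicate block, the count for leaf collection 4 minus 3 went from 3 to 9 and that for 3 minus 2 from 29 to 47. The same pairing gave 60 members for collection 4 minus 1. For April the block was the replicate number, which joins trees of different sites, and it gave 57. No other count moved by over 1.5 times under these blocks. With no filter on low values there were 0 members for collection 4 minus 3, 11 for 3 minus 2 and 0 for its site difference. It also gave 0 between sites in leaf, 3 for Hokkaido minus Fukuoka and 2 for Hokkaido minus Tsukuba in leaf, and 27, 41 and 12 for the same tests in July and August buds. Median scaling gave 5 for collection 4 minus 3, 0 for the site difference of 3 minus 2, and 2 for Tsukuba minus Fukuoka in July and August buds, where quantile normalization gave 11. With trend and robust options on, those buds gave 43 for Tsukuba minus Fukuoka, and leaves gave 91 between sites, 91 for Hokkaido minus Fukuoka and 65 for Hokkaido minus Tsukuba. A filter on the fitted libraries gave 38 in those buds, and in leaves 97, 91 and 72, with 4 for Tsukuba minus Fukuoka. A pseudocount of 0.1 gave 0, 21 and 9 for the 3 leaf tests with Hokkaido or all sites. Library series under 8000 gave 0 for Hokkaido minus Tsukuba in July and August buds. The causes were not tested.

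Leaving out 1 tree at a time assumes that the lone tree of a site varies like the others. The counts then ran from 43 to 56 for leaf collection 4 minus 1, 7 to 20 for 2 minus 1, 0 to 2 for 4 minus 3, 2 to 42 for 3 minus 2, 48 to 74 for the site difference of 4 minus 1 and 0 to 4 for that of 3 minus 2. Between sites in leaf they were 0 to 0 over the 3 sites, 0 to 23 for Hokkaido minus Fukuoka and 0 to 28 for Hokkaido minus Tsukuba. In July and August buds they were 41 to 130 over the 3 sites, 0 to 74 for Tsukuba minus Fukuoka, 39 to 86 for Hokkaido minus Fukuoka and 30 to 94 for Hokkaido minus Tsukuba. In April they were 29 to 44. Among the named genes' values under all alternatives, 330 kept their call, 154 lost it and 0 changed sign. Depth limits cannot be given for TPM.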
